A study of Mus musculus with 8 samples.

Results

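The genes described here are Cubn, Amn, Lrp2, Dab2, Slc5a12, Npl and Gal3st2, which are 7 of the 55416 genes in the deposited tables of mouse small intestinal organoids. They are the cubilin receptor complex (Cubn, Amn, Lrp2 and Dab2) and 3 further genes. They were selected on measured values of these same libraries, namely a surge in irradiated organoids at day 4 and a drop by day 7. The contrasts that chose them, irradiated against control organoids at day 4 and irradiated organoids at day 7 against day 4, are therefore given for these genes as a description without a test. The values did not bear out the label for the complex as a whole: Cubn, Slc5a12, Npl and Gal3st2 surged and dropped, whereas Amn was not at its highest at day 4, and Lrp2 and Dab2 stayed at 0 to 3 counts in every library. All 7 genes were found by symbol, and 5 of them passed the filter on low counts that left 14063 genes for testing. Lrp2 and Dab2 did not pass, and Slc5a12 and Gal3st2 reached 10 counts only in irradiated libraries.

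The organoids were epithelial cultures grown in IntestiCult medium from the intestines of C57BL/6 mice aged 4 to 8 weeks. The 4 groups of 2 libraries each were organoids given 6 Gy of X-rays at day 4, untreated controls at day 4, organoids given 6 Gy at day 7 and untreated controls at day 7. All 8 libraries, controls included, were homozygous (Tg/Tg) for Rosa26-rtTA and for Col1A1-TetO-OSKM, an inducible transgene of reprogramming factors, and the labels do not say that it was switched on or from when the days were counted. The labels do not say whether the 2 libraries of a group came from separate cultures or animals, so the p-values below measure the spread between these libraries, which may be technical.

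Cubilin is a large peripheral membrane protein of the apical surface that binds the complex of vitamin B12 and intrinsic factor in the ileum and filtered proteins in the kidney tubule. It has no membrane anchor of its own: amnionless, the product of Amn, holds it in the membrane and brings it to the surface, megalin (Lrp2) is a second large receptor that works beside it, and the adaptor Dab2 links such receptors to clathrin. In the suckling intestine of mice, enterocytes rich in lysosomes use this machinery to take up milk proteins. Slc5a12 encodes a sodium-coupled transporter of lactate and other monocarboxylates, Npl the lyase that splits the sialic acid N-acetylneuraminate, and Gal3st2 a sulfotransferase that acts on galactose.

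Promoters are shown for the 3 surging genes that the RefSeq promoter table (GRCm38.p6) holds and for Amn, the partner that did not surge, so that the sequence before each start can be set beside the values. Each runs from 250 bases before to 50 bases after the start of the gene, 5′ to 3′ on the strand of the gene, and capitals mark a motif match. Cubn lies at chr2:13491827-13492126 on the minus strand, Npl at chr1:153549665-153549964 on the minus strand, Gal3st2 at chr1:93861094-93861393 on the plus strand and Amn at chr12:111270846-111271145 on the plus strand. The table held 6 of the 7 genes, all but Slc5a12, and the deposited tables themselves give no coordinates.
Cubn: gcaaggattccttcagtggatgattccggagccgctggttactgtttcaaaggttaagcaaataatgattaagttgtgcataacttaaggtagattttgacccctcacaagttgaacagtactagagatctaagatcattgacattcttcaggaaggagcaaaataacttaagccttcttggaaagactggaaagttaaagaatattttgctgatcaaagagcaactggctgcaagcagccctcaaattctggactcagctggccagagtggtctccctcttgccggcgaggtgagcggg
Npl: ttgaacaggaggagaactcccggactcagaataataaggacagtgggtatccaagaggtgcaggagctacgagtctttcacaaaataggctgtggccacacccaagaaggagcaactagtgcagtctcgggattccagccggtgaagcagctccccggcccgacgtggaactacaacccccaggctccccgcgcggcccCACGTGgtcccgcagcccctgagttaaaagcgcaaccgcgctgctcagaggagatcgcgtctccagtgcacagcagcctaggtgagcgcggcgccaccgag
Gal3st2: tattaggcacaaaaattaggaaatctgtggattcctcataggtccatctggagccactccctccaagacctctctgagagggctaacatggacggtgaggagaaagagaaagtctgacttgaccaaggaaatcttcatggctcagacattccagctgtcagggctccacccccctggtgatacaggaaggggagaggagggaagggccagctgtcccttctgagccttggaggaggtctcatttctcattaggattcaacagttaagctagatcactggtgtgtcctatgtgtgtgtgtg
Amn: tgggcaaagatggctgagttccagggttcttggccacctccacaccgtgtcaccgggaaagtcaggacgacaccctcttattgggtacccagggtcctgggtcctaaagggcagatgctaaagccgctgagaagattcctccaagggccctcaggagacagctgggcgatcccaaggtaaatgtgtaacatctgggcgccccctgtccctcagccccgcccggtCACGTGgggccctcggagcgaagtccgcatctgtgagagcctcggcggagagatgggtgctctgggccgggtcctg
Of 5 motifs searched on both strands, the E-box CACGTG, which reads the same on both, was found at base -51 of Npl and at base -26 of Amn. It is present in 7.15% of the 32851 promoters of the table. HNF4 (CAAAGTCCA, 0.475% of all promoters) and HNF1 (GTTAATNAT, 0.801%) each lacked a match in these 4 windows. So did CDX (CCATAAA), present in 2.75% of all promoters. The same held for the motif of GATA factors (AGATAA), present in 11.2%, so that no motif was found for Cubn or Gal3st2. The 3 surging genes shown, Cubn, Npl and Gal3st2, shared none of the 5 letter strings, and the string found in Npl was also found in Amn. A match is a string of letters and not a measured site.

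Expected counts per library summed to between 7541760 and 16054300, so that 1 count was worth 0.0610 to 0.120 CPM, the unit of counts relative to library size after TMM scaling. Mitochondrial transcripts took 20.3% and 27.6% of the counts in irradiated organoids at day 4, against 20.7% and 16.2% in controls at day 4, and the day 7 libraries ranged from 12.9% to 16.1%. All 9 of 9 epithelial markers were detected, with a summed level of 5928 to 7070 CPM in irradiated organoids at day 4, against 4156 to 4206 CPM in controls. The markers did not move as one: Krt8, Krt18, Krt19 and Vil1 lay above the controls in both irradiated libraries, whereas Epcam had 744 and 678 CPM in irradiated organoids against 1059 and 1024 CPM in controls, and Cdx2 had 62.3 and 69.5 CPM against 120.2 and 148.2 CPM. Intervals given for ratios of counts are exact binomial intervals at 95% confidence and cover counting error only.

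Cubn was the gene of the receptor complex that moved. It had 481 and 1022 counts in the irradiated day 4 libraries, against 12 and 13 counts in the day 4 controls. In the irradiated day 7 libraries it had 43.8 and 39 counts, against 12 and 20 counts in the day 7 controls. Both irradiated day 4 libraries stood far above the other 6, and the irradiated day 7 libraries lay above all 4 controls. As mean levels these were 81.5 ± 42.1 CPM in irradiated organoids and 0.907 ± 0.163 CPM in controls at day 4 (SD, n = 2 each), and 4.59 ± 0.143 CPM in irradiated organoids and 1.56 ± 0.390 CPM in controls at day 7. The counts at day 4 stood in a ratio of 91.5 (interval 61.8 to 142), a fitted log2 fold change of 6.50, and the log2 change of irradiated organoids at day 7 against day 4 was -4.15. Without irradiated replicate 2 the day 4 value was 5.84 on the log2 scale. An antisense gene, Gm13270, overlaps Cubn by 207 exonic bases in GENCODE M21 and held 2.01 to 10 counts in the 8 libraries, with 4.43 and 5.10 in the irradiated day 4 libraries.

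Amn, the membrane anchor of cubilin, did not follow its partner. It had 60 and 53 counts in irradiated organoids at day 4, against 55 and 80 counts in the more deeply sequenced controls, and 100 and 82 counts in irradiated organoids at day 7, against 66 and 68 counts in controls. Scaled to library size these were 6.11 ± 0.482 CPM in irradiated organoids and 4.78 ± 0.134 CPM in controls at day 4, and 10.04 ± 0.240 CPM in irradiated organoids and 6.67 ± 0.589 CPM in controls at day 7. On the CPM scale the groups did not overlap at either day, and the irradiated day 7 libraries were the highest of the 8. In the deposited TPM the day 4 groups did overlap, with 5.03 and 3.58 TPM in irradiated organoids against 3.60 and 4.10 TPM in controls. The log2 fold change at day 4 was 0.35 from the counts and 0.12 on the log2(TPM + 1) scale. Amn was higher in irradiated organoids at day 7 than at day 4 by 0.72 on the log2 scale from the counts, and by 1.05 on the log2(TPM + 1) scale.

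Per unit of transcript length the 2 partners changed places. In TPM, the deposited unit that takes account of transcript length, Cubn stood at 5.91 and 10.1 and Amn at 5.03 and 3.58 in irradiated organoids at day 4, against 0.11 and 0.10 for Cubn and 3.60 and 4.10 for Amn in the day 4 controls. The ratio of Cubn to Amn TPM was 1.17 and 2.81 in irradiated organoids at day 4, against 0.0306 and 0.0244 in controls. At day 7 it was 0.0618 and 0.0645 in irradiated organoids, against 0.0257 and 0.0401 in controls. Cubn transcript exceeded that of its anchor in the irradiated day 4 libraries and in no other library.

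**Figure D1:**
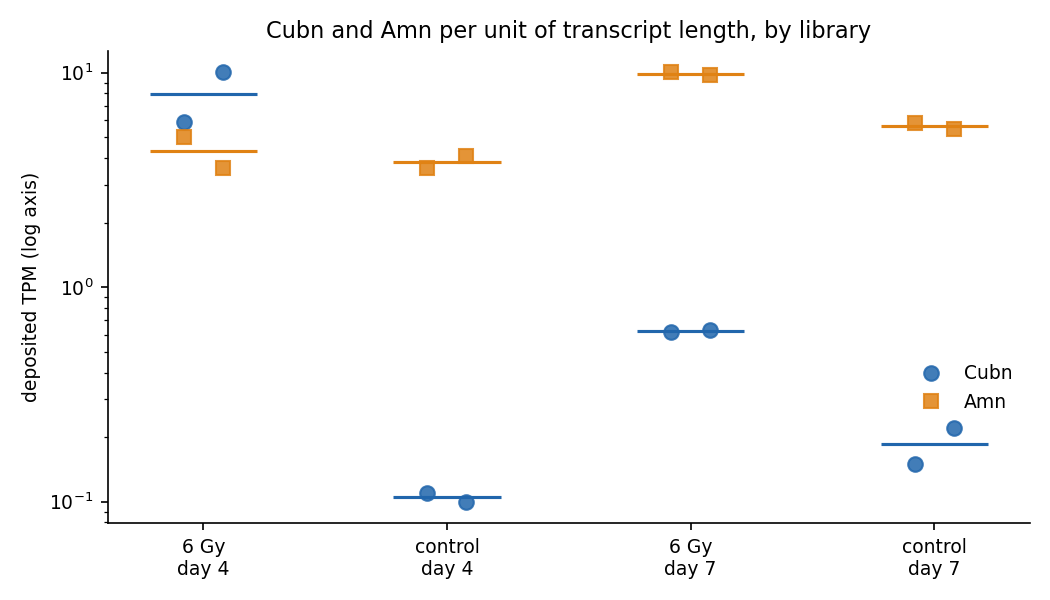
Deposited TPM of Cubn (circles) and Amn (squares) in each library on a log axis, with lines at the group means of 2 libraries. Cubn lay above Amn in both irradiated day 4 libraries, and at 0.63 TPM or less in the other 6 libraries, where Amn ran from 3.60 to 10.03 TPM.

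The other 2 genes of the complex were at the limit of detection. Lrp2, which encodes megalin, had 0 and 1 counts in irradiated organoids and 0 and 0 in controls at day 4, and 0 and 3 counts in irradiated organoids and 1 and 1 in controls at day 7. A group total of 3 counts, the limit that a count of 0 allows, is worth a mean of 0.162 CPM in irradiated organoids and 0.107 CPM in controls at day 4. Dab2, the clathrin adaptor, had 2 and 2 counts in irradiated organoids, against 3 and 3 counts in controls at day 4, and 0 and 1 counts in irradiated organoids, against 0 and 0 in controls at day 7. The Dab2 ratio at day 4 was 1.01 (interval 0.211 to 4.28), which covers changes of several-fold in either direction. Neither Lrp2 nor Dab2 had more than 2 counts in an irradiated day 4 library.

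Slc5a12, the monocarboxylate transporter, was close to undetected in controls and well detected after irradiation. It had 236 and 463 counts in irradiated organoids at day 4, against 1 and 1 counts in controls, a ratio of 532 (interval 147 to 4402). At day 7 it had 19 and 13 counts in irradiated organoids, against 1 and 1 counts in controls. Its mean level was 37.9 ± 17.7 CPM in irradiated organoids at day 4 and 1.75 ± 0.265 CPM at day 7, while all 4 control libraries held 1 count each. In TPM it reached 10.6 and 16.8 in irradiated organoids at day 4, against 0.07 and 0.06 in controls.

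Npl, the sialic acid lyase, had the highest level per length of the 7 genes in irradiated organoids at day 4. It had 522 and 1167 counts in irradiated organoids at day 4, against 31 and 23 counts in controls, and 65 and 57 counts in irradiated organoids at day 7, against 34 and 44 counts in controls. In TPM it stood at 42.8 and 77.3 in irradiated organoids, against 1.99 and 1.15 in controls at day 4. Its counts at day 4 had a ratio of 47.6 (interval 36.3 to 63.7) and a fitted log2 fold change of 5.55, and its log2 change in irradiated organoids at day 7 against day 4 was -3.76. Without irradiated replicate 2 these values were 4.84 and -3.05.

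**Figure D2:**
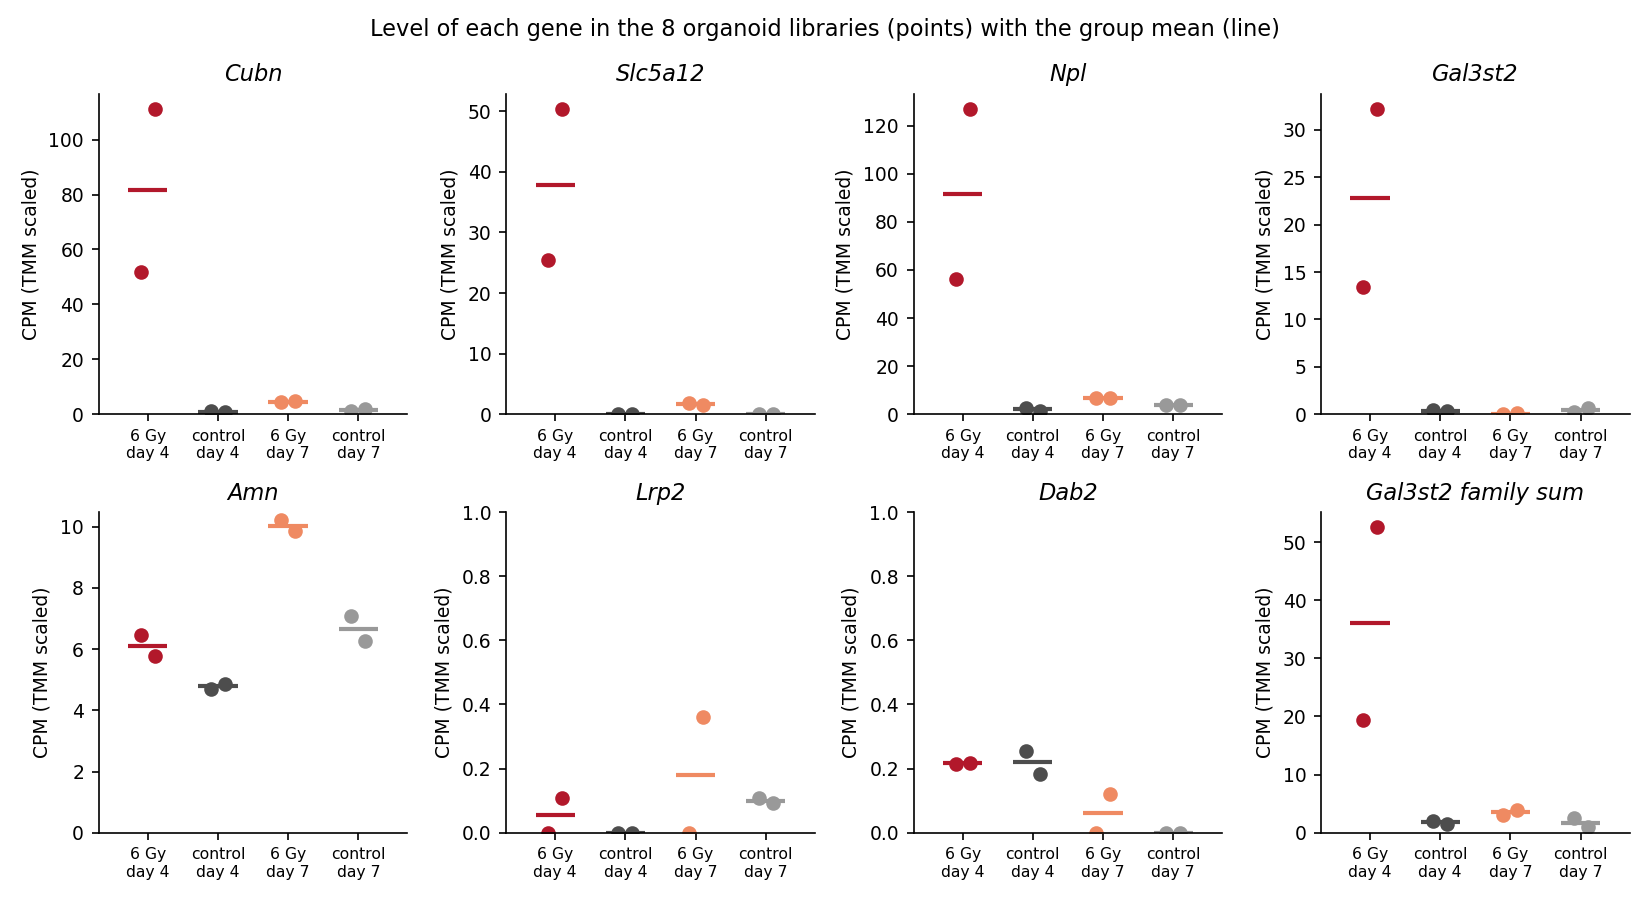
CPM of each gene in every library (points) with the mean of the 2 libraries (line), each panel on its own linear axis that starts at 0. Cubn, Slc5a12, Npl and Gal3st2 were high only in the irradiated day 4 libraries, Amn was highest in the irradiated day 7 libraries, and Lrp2 and Dab2 did not exceed 0.361 CPM.

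Gal3st2, the galactose sulfotransferase, has near-copies, and its values depend on how reads were divided among them. Of its 50-base stretches in the GENCODE M21 transcripts, 71.2% also occur in another gene, 68.8% in Gal3st2b and 28.7% in Gal3st2c, whereas the largest such share among the other 6 genes was 1.79% (Npl). Gal3st2 itself had 125 and 296 counts in irradiated organoids at day 4, against 4.92 and 5.43 counts in controls, and 0 and 1 counts in irradiated organoids at day 7, against 1.92 and 6.69 counts in controls. Summed over the 3 copies the counts were whole in every library, at 181 and 483 in irradiated organoids, against 24 and 26 in controls at day 4, and at 30 and 33 in irradiated organoids, against 24 and 10 in controls at day 7. The sum was high where the single gene was, with 36.0 ± 23.4 CPM in irradiated organoids and 1.78 ± 0.369 CPM in controls at day 4 (fitted log2 fold change 4.32, against 5.95 for Gal3st2 alone).

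The copies parted at day 7. Gal3st2 was assigned 68.9% and 61.3% of the family's counts in irradiated organoids at day 4, against 20.5% and 20.9% in controls, and 0% and 3.03% in irradiated organoids at day 7, against 8.00% and 66.9% in controls. Gal3st2b took 93.0% and 90.6% of them in irradiated organoids at day 7, against 83.5% and 0% in controls. In irradiated organoids Gal3st2 had 1 count in both day 7 libraries together, against 421 counts at day 4 (ratio 0.00242, interval 6.12e-05 to 0.0136), while the family sum was 3.52 ± 0.643 CPM at day 7, against 36.0 ± 23.4 CPM at day 4. Its deposited TPM did not follow its counts, with 0 and 0.65 TPM in irradiated organoids at day 7 from 0 and 1 counts, and 0.19 and 0.88 TPM in day 4 controls from 4.92 and 5.43 counts. The level of this single copy is therefore uncertain at the low end, and the family sum is used beside it below. The aligned promoters of Gal3st2 and Gal3st2b had 45.6% identical positions.

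**Figure D3:**
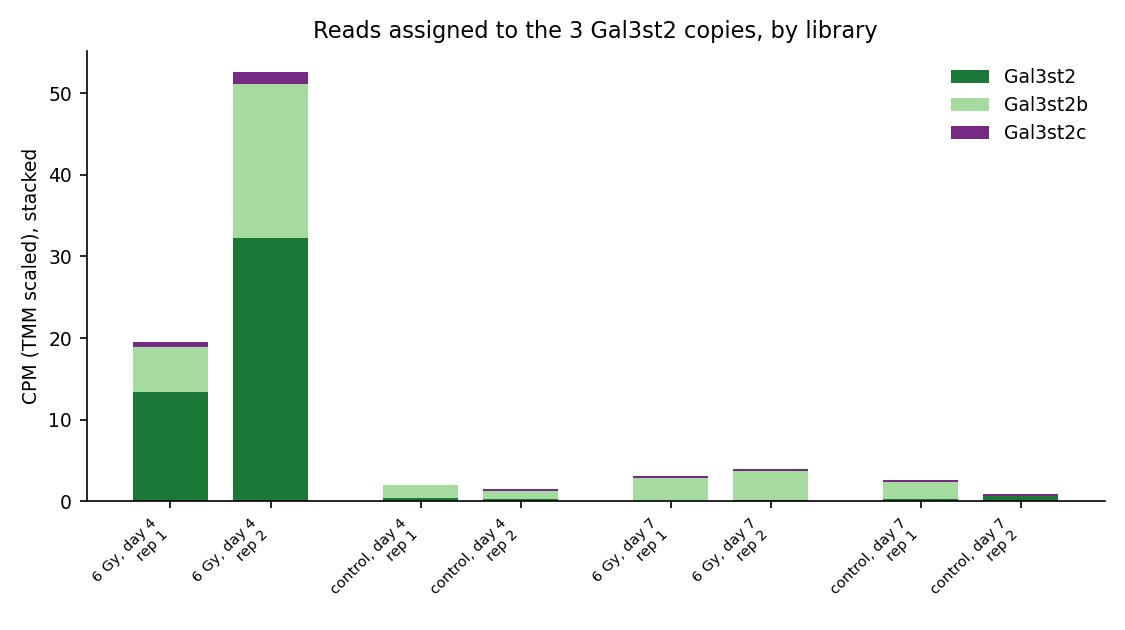
CPM assigned to Gal3st2, Gal3st2b and Gal3st2c, stacked, in each of the 8 libraries (linear axis from 0). The 2 irradiated day 4 libraries stood at 19.5 and 52.6 CPM for the 3 copies together, all other libraries lay below 4 CPM, and the irradiated day 7 bars were almost wholly Gal3st2b.

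Of the 7 genes, 4 were at least 2-fold higher in irradiated than in control organoids at day 4 and then at least 2-fold lower in irradiated organoids at day 7 than at day 4, a pattern shown by 6.25% of the 14063 genes tested. Since these contrasts chose the genes, nothing is read from that count. For reference, 20.0% of all genes tested were called higher and 16.5% lower by irradiation at day 4, where a call is an adjusted p under 0.05 from edgeR's quasi-likelihood test, and 14.7% were called higher and 18.3% lower in irradiated organoids at day 7 than at day 4.

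The 4 surging genes also varied together between the replicates of one group. In irradiated organoids at day 4, the level in replicate 2 over that in replicate 1 was 2.15 for Cubn, 1.99 for Slc5a12, 2.26 for Npl and 2.40 for Gal3st2. Over the 8975 genes with at least 100 counts in replicate 1, the median of this ratio was 0.978 and the 5th to 95th percentile range was 0.723 to 1.44. In proportion to Npl, counts of Cubn were 92.1% in replicate 1 and 87.6% in replicate 2, counts of Slc5a12 were 45.2% and 39.7%, and counts of Gal3st2 were 23.9% and 25.4%. With the Gal3st2 copies summed, the ratio of replicate 2 to replicate 1 was 2.702, and the family came to 34.7% of Npl in replicate 1 and 41.4% in replicate 2. All 4 genes were thus higher in replicate 2, and their proportions differed between the replicates by less than their common level did. Replicate 2 was also the library with the highest mitochondrial share, 27.6% against 20.3% in replicate 1, and the part of this in the levels was not tested.

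Markers of absorptive enterocytes moved in the same direction. The sum of 15 enterocyte markers, all of them detected, was 13381 and 21691 CPM in irradiated organoids at day 4, against 3725 to 4075 CPM in controls, and 5382 to 5390 CPM in irradiated organoids at day 7, against 3370 to 3388 CPM in controls. In bulk RNA a larger share of cells of a type and more RNA per cell cannot be told apart. The ratio of replicate 2 to replicate 1 in irradiated organoids at day 4 ranged from 1.06 (Apob) to 3.02 (Treh) over the 15 markers, with a median of 1.59. The part of enterocyte content in the levels of the 4 genes was not tested.

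The 4 genes kept less of their day 4 level than any of these markers. In irradiated organoids at day 7 the remaining level was 5.63% of that at day 4 for Cubn, 4.62% for Slc5a12, 7.37% for Npl and 9.76% for the Gal3st2 family sum. For the 15 enterocyte markers it ranged from 17.1% for Lct, the lactase gene, to 56.5% for Alpi, the intestinal alkaline phosphatase gene, with a median of 29.3%. The ratio of means between irradiated and control organoids at day 4 was 89.8 for Cubn, 45.3 for Npl and 20.2 for the family sum, against a range of 3.11 (Anpep) to 45.8 (Lct) over the markers. The drop and the surge are what these genes were chosen for, so the gap to the markers is a description.

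**Figure D4:**
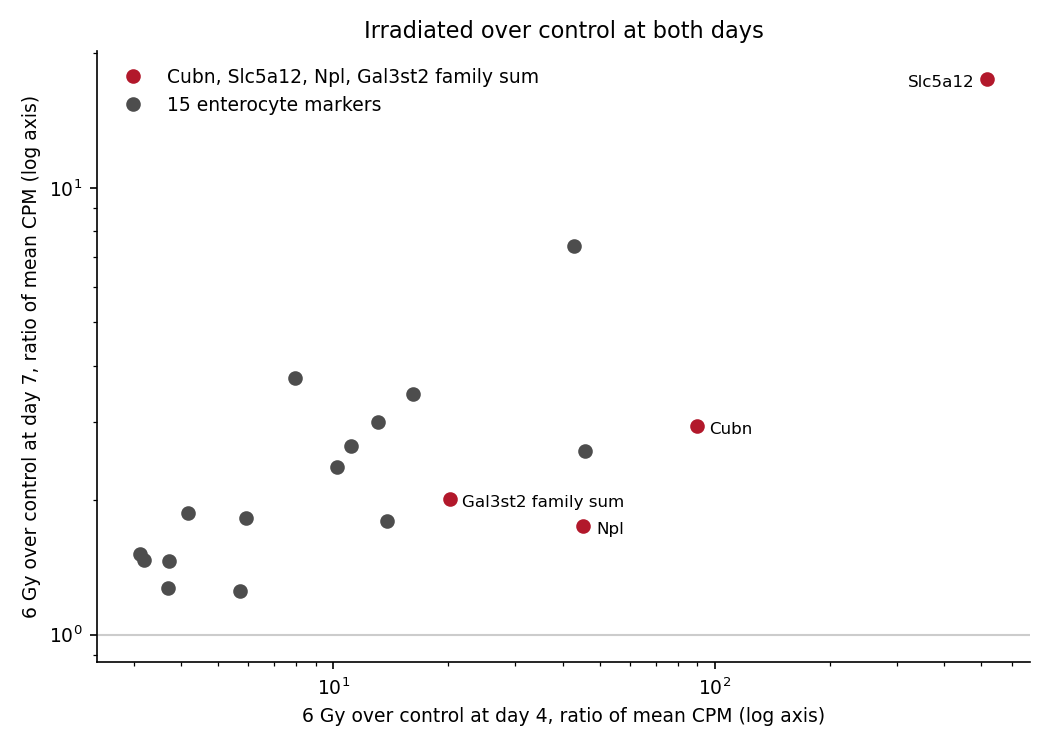
Ratio of mean CPM of irradiated to control organoids at day 4 (horizontal) and at day 7 (vertical), both on log axes, for Cubn, Slc5a12, Npl and the Gal3st2 family sum and for 15 enterocyte markers. All points lay above 1 at both days, with Slc5a12 highest at both (518 and 17.6), and Npl and the family sum at 1.75 and 2.01 at day 7 among markers that ran from 1.25 to 7.41.

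Other cell types were looked for by their own markers. In the kidney proximal tubule list, where Cubn and Lrp2 are themselves members, Cubn made up nearly all of the summed 51.9 and 112 CPM in irradiated organoids at day 4, against 1.02 and 1.04 CPM in controls, and Slc22a6, Slc22a12, Slc7a13 and Kap were at 0 counts in all 8 libraries. Immune markers summed to 10.7 to 14.2 CPM in irradiated organoids at day 4, against 4.60 to 5.06 CPM in controls. Of the 12, 4 were above the count filter, and Adgre1, C1qb, C1qc and Cd163 were at 0 counts. Mrc1 had 4.84 and 3.48 CPM in irradiated organoids at day 4, against 0.511 and 0.549 CPM in controls. Csf1r had 1.83 and 1.63 CPM against 0.085 and 0.061 CPM, and Cd14 5.16 and 3.38 CPM against 1.45 and 1.71 CPM. Cd68 overlapped between these groups, with 2.26 and 1.63 CPM against 1.88 and 2.74 CPM. Mesenchymal markers summed to 2.47 to 2.94 CPM in irradiated organoids, against 1.87 to 3.54 CPM in controls, and endothelial markers to 3.01 to 5.44 CPM in irradiated organoids, against 3.24 to 4.08 CPM in controls. Single endothelial markers moved in both directions. Tek had 1.08 and 2.61 CPM in irradiated organoids at day 4, against 0.170 and 0.122 CPM in controls. Pecam1 had 1.18 and 2.18 CPM against 0.596 and 0.853 CPM, and Egfl7 0.645 and 0.544 CPM against 2.47 and 3.11 CPM. The part of the immune and endothelial markers in these results was not tested.

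What remained at day 7 was tested against the day 7 controls, a contrast that did not choose the genes but shares the irradiated day 7 libraries with the drop. Of the 5 genes that passed the count filter 1 was called, beside 4.70% of all genes called higher and 3.95% called lower. This was Slc5a12. It passed the count filter only through the irradiated libraries, where it was high, so its place among the tested genes was not independent of its difference and the call is given as a description. It was higher in irradiated organoids, with 32 counts in the irradiated group against 2 in the controls (ratio 17.8, interval 4.55 to 154) and a log2 fold change of 4.00 (SE 0.871, adjusted p = 0.0249, edgeR quasi-likelihood test). The call was lost with limma-voom (adjusted p = 0.292) and on the log2(TPM + 1) scale (adjusted p = 0.166). It was also lost, at adjusted p = 0.0605 to 0.184, when either control library of day 4, either control library of day 7 or either irradiated library of day 7 was left out.

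The other genes were not called at day 7. Cubn had a log2 fold change of 1.53 (SE 0.625, adjusted p = 0.185, edgeR), with irradiated libraries at 4.49 and 4.69 CPM and controls at 1.29 and 1.84 CPM. Amn had a log2 fold change of 0.59 (SE 0.193, adjusted p = 0.0862, edgeR), with irradiated libraries at 10.2 and 9.87 CPM and controls at 7.09 and 6.25 CPM. Npl had one of 0.80 (SE 0.596, adjusted p = 0.462, edgeR), with irradiated libraries at 6.63 and 6.86 CPM and controls at 3.65 and 4.05 CPM. For these 3 genes the irradiated mean was the higher one, with no difference called in the fit over all 8 libraries. All 3 were called when only the 4 day 7 libraries entered the edgeR fit (adjusted p = 3.50e-04 for Cubn, 0.00968 for Amn and 0.00614 for Npl), which takes the spread from the day 7 libraries alone. Replicates of all genes differed less at day 7, with a chi-square per degree of freedom of 3.46 in irradiated organoids and 6.06 in controls. At day 4 these values were 29.8 and 19.6. The part of this in the calls was not tested. Cubn and Npl were also called when either irradiated day 4 library was left out (adjusted p = 0.00200 and 0.00265 for Cubn, 0.0399 and 0.0462 for Npl), and Cubn with DESeq2 (adjusted p = 0.00596).

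For Gal3st2 the direction at day 7 depended on the copies. The single gene was lower in irradiated organoids, with 1 count against 9 in the controls (ratio 0.124, interval 0.00283 to 0.894) and an adjusted p of 0.313 in edgeR. Gal3st2 passed the count filter only through the irradiated day 4 libraries, whose surge chose it. Its day 7 value is therefore given as a description. The family sum gave a log2 difference of 1.03 in the other direction (SE 0.794, adjusted p = 0.475, edgeR), with 3.52 ± 0.643 CPM in irradiated organoids and 1.75 ± 1.17 CPM in controls. Neither was called.

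Time alone, without irradiation, was tested in the controls, where day 7 shares with the surge only the day 4 control libraries. None of the 5 genes was called by edgeR between control day 7 and control day 4, beside 1.25% of all genes called higher and 1.46% called lower, and 1 of the 5, Amn, had an unadjusted p under 0.05. DESeq2, limma-voom and both TPM fits also called 0. Cubn averaged 1.56 ± 0.390 CPM in controls at day 7 and 0.907 ± 0.163 CPM in controls at day 4 (log2 fold change 0.82, SE 0.789), Npl 3.85 ± 0.280 and 2.02 ± 0.877 CPM (0.99, SE 0.684), and Amn 6.67 ± 0.589 and 4.78 ± 0.134 CPM (0.47, SE 0.198). The mean was higher at day 7 for Cubn, Npl and Amn, and none of these differences was called in the fit over all 8 libraries. Slc5a12 had 2 counts in each control group, and Gal3st2 had 10 counts in controls at day 4 and 9 at day 7. Both genes passed the count filter only through irradiated libraries. With so few counts in controls, the test cannot decide whether either changed with time. Without irradiated day 4 replicate 1, Npl was called (adjusted p = 0.0461).

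Ordered by level, Cubn and Npl had the same order of groups: irradiated day 4, irradiated day 7, control day 7 and control day 4. For Cubn and Npl the steps among the last 3 groups were not called in the fit over all 8 libraries, and the fits that did call some of them are given above. Slc5a12 had irradiated day 4 above irradiated day 7, with both control groups at 1 count per library. Amn ran from irradiated day 7 through control day 7 and irradiated day 4 to control day 4, and the libraries of control day 7 (6.25 and 7.09 CPM) overlapped those of irradiated day 4 (5.77 and 6.45 CPM).

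Over the 8 libraries, the log2 levels of Cubn correlated with those of Slc5a12 at r = 0.990, of Npl at r = 0.993, of Gal3st2 at r = 0.865 and of Amn at r = 0.118, points that share groups and libraries. The genes were chosen for a common pattern in these same libraries, so the high values among the surging genes are a description. By likeness to the mean standardised log2 profile of the 5 genes that passed the filter, the nearest of 12665 candidate genes were Plin3, Acad11, H2-Bl, Atp6v0a2, Ifit1bl2, Vil1, Ace, Hsd17b11, Cdhr2 and Slc2a2, with r between 0.993 and 0.997 over 8 libraries. Among them, Ace had 241 CPM in irradiated organoids and 6.22 CPM in controls at day 4, and 38.5 CPM in irradiated organoids and 10.4 CPM in controls at day 7. Cubn itself correlated with this mean at 0.990 and Amn at 0.254, and both are among the genes averaged into it. With the 4 surging genes alone as the profile, a choice made after the values were seen, the nearest genes were Myo15b, Heph, Gk, Zzef1, Cideb, Lap3, Crot, Synpo, Tgoln1 and Fuca2 (r = 0.988 to 0.996). Synpo among them had 32.3 CPM in irradiated organoids and 4.34 CPM in controls at day 4, and 6.40 CPM in irradiated organoids and 4.97 CPM in controls at day 7.

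Genes that work with cubilin, and the pathways of Npl, Slc5a12 and Gal3st2, were followed in 5 lists of other genes, 114 of whose 143 members passed the count filter. The lists were not tested as sets, and each count of calls stands beside the share over all genes tested. That share was 20.0% called higher and 16.5% called lower at day 4, and 4.70% and 3.95% at day 7. Over all genes tested the median log2 fold change was 0.00 at both days. On the log2(TPM + 1) scale that median was -0.17 at day 4 and 0.12 at day 7, and the split of calls was 1104 higher and 1732 lower at day 4, against 2808 and 2322 on the count scale, and 316 higher and 71 lower at day 7, against 661 and 555. Of the 43 calls named below over both days, log2(TPM + 1) and log2(TPM + 0.1) each lost 13, DESeq2 lost 7 and limma-voom lost 6. The day 4 calls of Slc5a3 and Chst11 were among those lost on both TPM scales. Of the 26 named calls at day 4 below, 22 held whichever library was left out. Of the 17 at day 7, those of Ctsd and Slc5a4b held, and the other 15 were lost without any single one of the 4 day 7 libraries.

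Among 33 tested receptor partners and endocytic coat genes, 15 were higher in irradiated organoids at day 4 and 5 were lower, with a median log2 fold change of 0.28. Tcn2, which encodes the transcobalamin that carries vitamin B12 in blood, rose to 118 ± 20.2 CPM in irradiated organoids, against 45.4 ± 4.22 CPM in controls (log2 fold change 1.37, adjusted p = 2.73e-05, edgeR). Cltb, a clathrin light chain, rose by 1.23 and Ap2a2, a subunit of the plasma membrane adaptor AP-2, by 0.77. The lipoprotein receptor gene Lrp8, a relative of that of megalin, fell by 0.80, and Itsn1, an endocytic scaffold, fell by 0.43, a call that did not hold (adjusted p = 0.0791) when replicate 2 of the day 4 controls was left out. Without that library 13 of the list were called in place of 20. Lrp1, another receptor of the family, and Lrpap1, the chaperone of these receptors, were not called, with log2 fold changes of -0.26 and -0.18. Intrinsic factor itself (Cblif, listed under the symbol Gif) was below the count filter, at 0.163 CPM in irradiated organoids and 0.396 CPM in controls.

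At day 7, 6 of these 33 genes were higher in irradiated organoids and 1 was lower (median 0.09). Cltb (0.62), Ap2s1 (0.44), the small AP-2 subunit, and Rab5c (0.31), a GTPase of early endosomes, were higher. Vldlr, a lipoprotein receptor, fell to 14.0 ± 0.0673 CPM in irradiated organoids, against 45.01 ± 0.715 CPM in controls (log2 fold change -1.68, adjusted p = 0.00955, edgeR). Every one of these calls was lost without any 1 of the 4 day 7 libraries.

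Among 28 lysosomal and neonatal enterocyte genes, 16 were higher and 3 lower in irradiated organoids at day 4, with a median of 0.43. Ctsd, the lysosomal protease cathepsin D, rose to 338 ± 46.2 CPM in irradiated organoids, against 115 ± 0.466 CPM in controls (log2 fold change 1.56, adjusted p = 3.29e-06, edgeR), Ctsh, another cathepsin, by 1.26, and Lamp1, a protein of the lysosomal membrane, by 1.01. Npc2, a lysosomal cholesterol carrier, fell by 0.57, Glb1, the lysosomal beta-galactosidase, by 0.45, and Gaa, the lysosomal alpha-glucosidase, by 0.41. Leaving out replicate 2 of the day 4 controls, replicate 2 of the irradiated day 4 group or either irradiated day 7 library ended the call for Gaa (adjusted p = 0.226, 0.111, 0.0513 and 0.0507). Prdm1, the repressor that holds the neonatal enterocyte programme in the suckling mouse, was not called, with a log2 fold change of 0.42.

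At day 7, 3 of the 28 were higher and 1 was lower (median 0.11). Ctsh was higher in irradiated organoids by 0.83, Ctsd by 0.81 and Ctsb, cathepsin B, by 0.36, and Hexa, the alpha subunit of beta-hexosaminidase, was lower, with a log2 fold change of -0.85. Without any 1 of the 4 day 7 libraries 1 gene of the list was called.

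Npl acts at the end of sialic acid breakdown. Of 20 tested sialic acid genes, 5 were called in irradiated organoids at day 4, all of them higher, with a median of 0.27. Over all genes tested, 20.0% were called higher and 16.5% lower at day 4. Gnpda1, the deaminase of glucosamine phosphate, rose to 33.9 and 38.3 CPM in irradiated organoids, against 10.4 and 9.57 CPM in controls (log2 fold change 1.86, adjusted p = 6.68e-06, edgeR). Amdhd2, the deacetylase that acts before it, rose by 1.15, and Ctsa, the protective protein that stabilises lysosomal sialidase, by 1.14. The sialidase gene Neu1 was not called, with 69.6 ± 1.69 CPM in irradiated organoids and 48.7 ± 14.9 CPM in controls (log2 fold change 0.51, adjusted p = 0.0634, edgeR). In edgeR Neu1 was called with no filter (adjusted p = 9.66e-04), with at least 5 CPM (0.0487) and with the replicate block (0.0152). DESeq2 also called Neu1 (adjusted p = 0.0448). The other settings that kept 2 libraries a group did not. At day 7, Amdhd2 was higher in irradiated organoids (0.65) and Renbp, the epimerase that interconverts N-acetylglucosamine and N-acetylmannosamine, was lower (-1.68). These were the 2 of the 20 that were called, with a median of 0.05, and both calls were lost without any 1 of the 4 day 7 libraries.

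Slc5a12 belongs to the sodium-coupled SLC5 family. Of 18 tested SLC5 and monocarboxylate transporter genes besides it, 9 were higher and 3 lower in irradiated organoids at day 4, with a median of 0.40. Slc5a4b, a relative of the glucose transporters, rose to 24.8 and 34.8 CPM in irradiated organoids, against 1.53 and 0.549 CPM in controls (log2 fold change 4.92, adjusted p = 1.44e-05, edgeR). It was still at 24.6 and 24.3 CPM in irradiated organoids at day 7, against 1.93 and 2.94 CPM in controls (3.30, adjusted p = 8.11e-04, edgeR), with irradiated libraries above all controls at both days. Slc5a9, a mannose and fructose transporter, rose by 1.97 at day 4 and Slc16a5, a monocarboxylate transporter of the proton-coupled family, by 1.32. Slc5a3, the sodium myo-inositol transporter, fell by 0.75, Slc16a1, the ubiquitous lactate transporter, by 0.40, and Bsg, the basigin chaperone of Slc16a1, by 0.78. Leaving out replicate 2 of the day 4 controls ended the calls for Bsg and Slc16a1 (adjusted p = 0.0780 and 0.121), and leaving out irradiated day 4 replicate 1 ended that for Slc16a1 (adjusted p = 0.0572). Slc5a8, the high-affinity counterpart of Slc5a12, was below the count filter, at 0.968 and 0.218 CPM in irradiated organoids, against 0 and 0.0610 CPM in controls at day 4.

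At day 7, 4 of these 18 were called in irradiated organoids, all of them higher (median 0.28). Besides Slc5a4b these included Slc5a6, the multivitamin transporter (0.66), and Slc16a6 (0.43). Slc16a1 was not called, with 91.3 ± 2.05 CPM in irradiated organoids and 93.5 ± 0.574 CPM in controls. Without any 1 of the 4 day 7 libraries 1 gene of the list was called.

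Gal3st2 needs an activated sulfate donor. Of 15 tested sulfation genes other than Gal3st2, 4 were higher and 4 lower in irradiated organoids at day 4, with a median of 0.40. The shares over all genes tested were 20.0% called higher and 16.5% called lower. Papss2, one of the enzymes that make the donor, rose to 90.5 and 130 CPM in irradiated organoids, against 23.1 and 16.1 CPM in controls (log2 fold change 2.50, adjusted p = 1.13e-04, edgeR), while its relative Papss1 fell by 0.75. Slc26a2, a sulfate transporter, rose by 1.58 and the sulfotransferase gene Chst4 by 2.12, and Chst15 and Chst11, which encode chondroitin sulfotransferases, fell by 2.43 and 0.91. Gal3st2b was not called, with 5.48 and 18.9 CPM in irradiated organoids, against 1.53 and 0.975 CPM in controls (log2 fold change 3.30, adjusted p = 0.0556, edgeR), and Gal3st2c was below the count filter. In edgeR Gal3st2b was called with at least 5 CPM (adjusted p = 0.0393) and in the day 4 libraries alone (0.0342). Limma on log2(TPM + 1) also called it (adjusted p = 0.0201). The other settings that kept 2 libraries a group did not. At day 7, Chst4 (1.45), Papss2 (1.39) and Tpst2, a tyrosine sulfotransferase (0.71), were higher in irradiated organoids and Chst15 (-2.03) was lower, with a median of 0.27 over the 15 genes. These calls too were lost without any 1 of the 4 day 7 libraries.

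**Figure D5:**
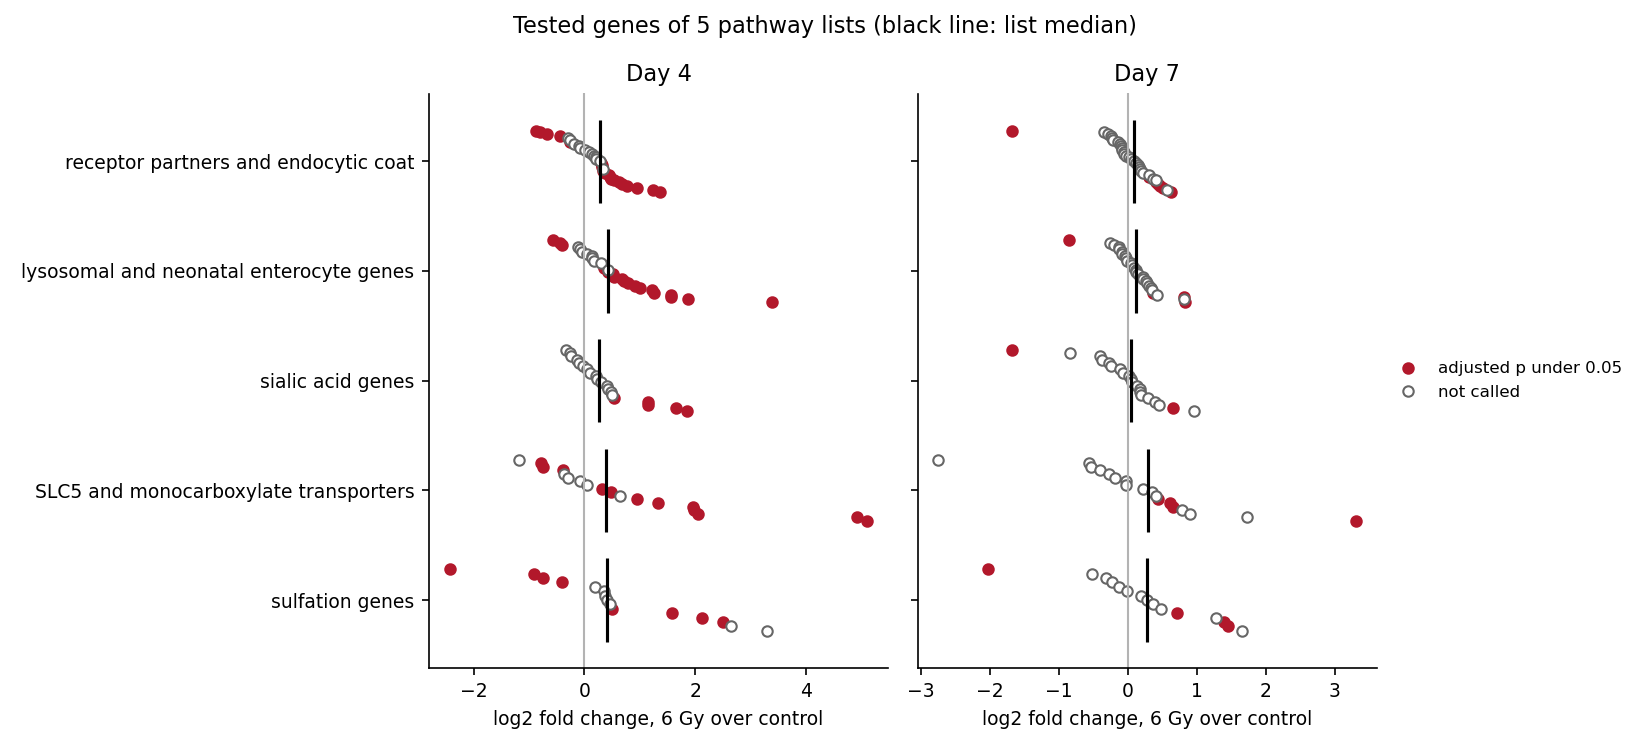
Log2 fold change of irradiated over control organoids (horizontal) at day 4 (left panel) and day 7 (right panel) for each tested gene of 5 lists (points; filled where the adjusted p was under 0.05), with the list median as a black line. List medians ran from 0.27 to 0.43 at day 4 and from 0.05 to 0.28 at day 7, with members on both sides of 0 in every list.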

How the data were processed

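The authors deposited expected counts per gene (estimates that divide reads among genes they fit, so not always whole) and TPM per gene (scaled for transcript length and library size), per the file headers. The tools named in the submitters' processing notes are RSEM 1.3.3, STAR 2.7.3a, Trim Galore and FastQC, and the builds are mm10 and GRCm39, with no role for either. Per the labels' protocols poly-A RNA was made into libraries with a directional kit. No source used here gives the strand setting of the counting, so sense and antisense reads may be mixed. Every deposited sample column was used.

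Expected counts were rounded (11.45% of values were not whole within 0.001). Symbols came from GENCODE M21 by gene ID for 52083 of 55416 genes. The edgeR 4.0.16 filter (minimum count 10, minimum total 15) left 14063 genes, which were fitted together, 4 group means over 8 libraries, with TMM scaling and a robust quasi-likelihood F-test (two-sided, 4 residual degrees of freedom). P-values were adjusted by Benjamini-Hochberg over all 14063 genes and a call is an adjusted p under 0.05. Means carry the SD of 2 libraries. Profiles used log2 CPM with a prior count of 2.

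The 7 genes, the lists and the tests were chosen with earlier results of these data known. Named genes were the 7 members, the 3 genes of each list with the smallest p in each direction among those called, 10 genes named whatever their values, and the 10 genes with a mean of at least 1 TPM nearest to the members' mean profile. Of the genes this rule names, 2 are not reported here. Other settings tried were DESeq2 1.42.0 and its size factors within edgeR, limma-voom (limma 3.58.1), limma on log2(TPM + 1) and log2(TPM + 0.1), no filter, a filter of at least 5 CPM in 2 libraries, no mitochondrial genes, a replicate block, a fit restricted to the groups compared, each library left out and, added after seeing the data, the Gal3st2 copies summed. Fold changes on the log2(TPM + 1) scale understate those of low genes. The fit was tested on simulated counts that gave each gene the same dispersion in all 4 groups. That run cannot show how calls behave where the spread differs between groups.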

Additional observations from a re-analysis of the deposited data

Results flagged for a closer look

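The effect of irradiation differed between the days for 10 of the named pathway genes, by a test of the difference itself (day 7 effect less day 4 effect in edgeR, Benjamini-Hochberg over all genes tested). These were among 40 named genes tested (25%), of which most were picked for small p-values in the day 4 or day 7 contrast on the same libraries, so their share is a description. Of the 112 list genes tested and reported here 17 had a difference past the threshold (15.2%), beside 1422 of all 14063 genes tested (10.1%). The members themselves were not tested for it, since this difference is what they were chosen for.

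In 8 of the 10 genes the effect was higher in irradiated organoids at day 4 and smaller at day 7. The differences on the log2 scale were -1.40 for Gnpda1 (adjusted p = 0.00279), -1.31 for Slc26a2 (0.00324), -1.19 for Slc5a9 (0.0482), -0.91 for Tcn2 (0.0120), -0.84 for Ctsa (0.00651), -0.75 for Lamp1 (0.00522), -0.75 for Ctsd (0.00974) and -0.46 for Ap2a2 (0.0381), each an adjusted p from edgeR. Of these, Tcn2 encodes the carrier of vitamin B12 in blood and Gnpda1 the deaminase of glucosamine phosphate, which acts after Amdhd2.

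Hexa, a subunit of a lysosomal hexosaminidase, had a difference of -1.02 (adjusted p = 0.0253, edgeR), from an effect of -0.85 at day 7 and 0.17 at day 4. Papss1, an enzyme that makes the sulfate donor, had a difference of 0.52 (adjusted p = 0.0169, edgeR), from an effect of -0.23 at day 7 and -0.75 at day 4. With 2 libraries a group no test for a sample standing apart from its group was made.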

How the results depend on the processing

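The limits are 2 libraries a group and few counts: Lrp2 and Dab2 were at 0 to 3 counts, Slc5a12 at 1 count in each control, and Gal3st2 shares most of its sequence with its copies. The surge chose the members, so its sign is no sign of stability, and its size depended on the scale: on log2(TPM + 1) the day 4 log2 change was 2.98 for Cubn and 3.76 for Slc5a12, and with copies summed it was 4.32 for Gal3st2. With main counts of 5130 genes at day 4, 1216 at day 7, 382 between controls and 4639 between irradiated days, leaving out 1 library gave 3842 to 5101, 105 to 2341, 17 to 1234 and 2094 to 5252, the lowest of the last 3 without a day 7 library and the highest at day 7 and between controls without irradiated day 4 replicate 2. Fitting only the groups compared gave 3228, 4732 and 620, log2(TPM + 1) 2836, 387 and 58, log2(TPM + 0.1) 2783, 389 and 55 for the first 3 comparisons, and no filter 2044 at day 7 and 1217 between controls. The causes of these changes were not tested. For the members at day 7, 1 was called, against 2 with no filter, 2 with DESeq2, 4 in the day 7 libraries alone, 0 with limma-voom and both TPM fits, and 0 to 3 without 1 library; between controls the range was 0 to 1.

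The replicate numbers are shared by groups with no stated pairing. Deviations of same-numbered libraries correlated at r = -0.0355 to 0.0581 over the pairs of groups. The replicate block called 2 members at day 7 (Slc5a12 and Cubn, adjusted p = 0.0455 for Cubn, edgeR) and 1 sialic acid gene in place of 2. The day 7 calls of Amdhd2, a sialic acid gene (adjusted p = 0.0503, edgeR), and of Chst15 (adjusted p = 0.0547, edgeR) were lost under it.

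For the lists at day 4, both TPM fits called 7 of 20 endocytic, 12 of 19 lysosomal and 3 of 5 sialic acid genes, log2(TPM + 0.1) 7 of 12 SLC5 and 5 of 8 sulfation genes, and the day 4 libraries alone 12 endocytic genes. Ranges without 1 library were 13 to 21 endocytic, 17 to 20 lysosomal, 5 to 7 sialic acid, 9 to 12 SLC5 and 6 to 10 sulfation genes. At day 7 those ranges were 0 to 14, 1 to 8, 0 to 5, 1 to 9 and 0 to 5, against 7, 4, 2, 4 and 4, the lowest in each case without a day 7 library. The day 7 libraries alone gave 20, 14, 6, 11 and 10, both TPM fits 1, 2, 1 and 2 in the first 4 lists, and no filter 7 lysosomal, 5 sialic acid and 9 SLC5 genes. DESeq2 gave 3 endocytic and 1 sialic acid gene, and limma-voom 3 endocytic, 0 sialic acid and 2 sulfation genes.

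Reversed signs all belonged to uncalled values. At log2(TPM + 1) and log2(TPM + 0.1), control day 7 against day 4 gave -0.034 and -0.24 for Slc5a12 and -0.064 and -0.28 for Gal3st2, which was -0.073 with copies summed (1.03 at day 7) and -0.70 to 0.83 without 1 library. Slc16a1 at day 7 gave 0.11 and 0.11 on these TPM scales, 0.020 with no filter and -0.051 to 0.031 without 1 library. Neu1 at day 7 gave -0.00683 with at least 5 CPM, -0.00517 with limma-voom, -0.00234 in the day 7 libraries alone, -0.00110 without mitochondrial genes and -0.10 to 0.20 without 1 library. The other ranges without 1 library were -0.70 to 0.12 for Lrp1 at day 4, and at day 7 -0.16 to 0.060 for Lrp1, -0.050 to 0.21 for Lrpap1 and -0.11 to 0.020 for Prdm1.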
